A study of Mus musculus with 15 samples.

Results

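The genes described here are 42 genes of NRF2 signalling, glutathione metabolism and antioxidant defence, followed in mouse lung fibroblasts and alveolar type II (ATII) cells. They were found as every non-control probe whose gene name in the scanner files is one of the 42 listed names, with no use of measured values. The 42 genes were read by 60 probes, out of 22405 named genes and 55681 non-control probes on the array. All 60 probes were well above background on all 15 arrays, and 42 of 42 genes were tested in each comparison.

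NRF2, the protein of Nfe2l2, is a transcription factor that is held in the cytoplasm and marked for degradation by KEAP1 under resting conditions. When reactive cysteines of KEAP1 are modified, NRF2 accumulates, pairs with small MAF proteins and binds antioxidant response elements, short DNA motifs near genes of detoxification and redox balance. Its known targets include the enzymes that make glutathione, the cell's main small thiol, the transferases that attach glutathione to reactive compounds, the thioredoxin system, and enzymes that supply NADPH, the electron donor that keeps glutathione and thioredoxin reduced. The lung meets high oxygen and inhaled oxidants, and its lining cells are known for their antioxidant enzymes.

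The arrays measured RNA of primary mouse lung fibroblasts, the mesenchymal cells that produce lung matrix, and of primary ATII cells, the epithelial cells that produce surfactant. Both cell types received phosphate-buffered saline (vehicle) or 1 mM β-aminopropionitrile (BAPN), an irreversible inhibitor of lysyl oxidases, for 24 h, and the comparisons ask what BAPN does in each cell type and how the cell types differ. Fibroblasts were read on 4 vehicle and 3 BAPN arrays and ATII cells on 4 arrays of either kind, all 1-colour. Fibroblasts had been passaged at least 3 times and then starved for 24 h, whereas ATII cells were kept with their upper side exposed to air for 3 days. Culture history and cell type therefore cannot be told apart. Strain, age and sex of the mice are not given in the labels used here. Replicates are numbered as in the labels, except that an ATII BAPN array labelled as a replacement is called replicate 5; whether replicates came from separate mice or cultures is not in the labels, and the p-values rest on a spread that may be technical only.

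Between 65.2% and 71.2% of the non-control spots were well above background per array, and 0 were saturated. A level is the log2 processed intensity minus the 75th percentile of that array, so that 0 marks the brightness of the 75th percentile. The number of arrays limits the precision. All 5 epithelial markers (Epcam, Cdh1, Krt8, Krt18 and Krt19) were higher in vehicle ATII cultures than in vehicle fibroblasts, and 0 were lower. Of the 10 ATII markers, 8 were well above background on all vehicle ATII arrays, against 5 on all vehicle fibroblast arrays. Among the 8 that were tested, 6 were higher and 0 lower in vehicle ATII cultures, while Slc34a2 was well above background on 0 of the 15 arrays. The 10 together summed to a linear level of 28.1 to 32.0 in vehicle fibroblasts and 39.8 to 42.8 in vehicle ATII cultures. The 10 fibroblast markers were well above background in all 4 groups, with a summed linear level of 683 to 968 in vehicle fibroblasts and 564 to 801 in vehicle ATII cultures. Of these 10, 5 were lower and 0 higher in vehicle ATII cultures. The summed level of 10 macrophage markers was 19.4 to 36.3 in vehicle fibroblasts and 8.0 to 8.89 in vehicle ATII cultures. Of these markers, 9 were lower and 1 was higher in vehicle ATII cultures. The part of macrophages in the results below was not tested. In such bulk samples, fewer cells of a type and less RNA per cell cannot be told apart.

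Probe sequences are printed for 3 genes the results turn on, Gclm, Gsta4 and Keap1, whose probes each cross an intron in the mouse build mm9. The Gclm probe (chr3:121962174-121964809), the Gsta4 probe (chr9:78046172-78047344) and the Keap1 probe (chr9:21035292-21035732) each hold 60 bases. They are given 5′ to 3′.
Gclm probe: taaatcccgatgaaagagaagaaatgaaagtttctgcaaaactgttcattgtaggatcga
Gsta4 probe: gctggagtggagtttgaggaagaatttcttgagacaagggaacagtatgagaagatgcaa
Keap1 probe: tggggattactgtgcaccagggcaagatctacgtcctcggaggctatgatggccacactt

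Promoter sequences of RefSeq (build GRCm38.p6, 250 bases before to 50 bases after each gene's start) were found by symbol for 37 of the 42 genes, as 46 promoters. They were searched on both strands for TGACNNNGC, the core of the antioxidant response element; a match that begins TGACTCA also holds the letters of an AP-1 motif. The letters were present in 12 of the 46 promoters (26.1%), against 12.4% of all 32851 promoters of that length. Matches were found for 7 of the 17 promoter-matched genes that were lower in vehicle ATII cultures (Gclm, Gstm5, Mgst1, Sod1, Txnrd1, Srxn1 and Pgd), for 0 of 5 that were higher, and for 5 of 15 that did not pass the test (Gsta3, Prdx1, Nfe2l2, G6pdx and Me1). Matches in Prdx1 and Me1 began TGACTCA. A match is a description of the letters and not evidence of a binding site.

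The matches of 5 genes that were lower in ATII cultures lay wholly before the start site, and 41 bases around each are printed 5′ to 3′ on the gene's own strand, with the matching letters in capitals (GCNNNGTCA where the match is on the other strand). Their distances from the start were -134 for Gclm (chr3:122245407-122245447, plus strand), -42 for Gstm5 (chr3:107895796-107895836, plus strand), -56 for Mgst1 (chr6:138140455-138140495, plus strand), -56 for Sod1 (chr16:90220690-90220730, plus strand) and -92 for Txnrd1 (chr10:82859098-82859138, plus strand).
Gclm: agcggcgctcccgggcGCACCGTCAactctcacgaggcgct
Gstm5: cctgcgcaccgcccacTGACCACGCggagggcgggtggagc
Mgst1: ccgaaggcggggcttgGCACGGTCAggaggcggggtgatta
Sod1: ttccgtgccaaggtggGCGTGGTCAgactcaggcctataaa
Txnrd1: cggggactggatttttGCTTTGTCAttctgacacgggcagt

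For contrast, the 250 bases before the start of the members with the lowest and the highest difference between the cell types, Nqo1 (chr8:107403206-107403455, minus strand) and Gpx2 (chr12:76795555-76795804, minus strand), are printed in the same way. Each window holds 0 matches, which says only that these letters are not in these bases.
Nqo1: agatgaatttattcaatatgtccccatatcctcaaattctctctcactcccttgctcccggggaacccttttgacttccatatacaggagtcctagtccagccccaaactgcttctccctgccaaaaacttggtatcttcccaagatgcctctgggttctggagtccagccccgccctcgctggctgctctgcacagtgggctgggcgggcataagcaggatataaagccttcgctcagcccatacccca
Gpx2: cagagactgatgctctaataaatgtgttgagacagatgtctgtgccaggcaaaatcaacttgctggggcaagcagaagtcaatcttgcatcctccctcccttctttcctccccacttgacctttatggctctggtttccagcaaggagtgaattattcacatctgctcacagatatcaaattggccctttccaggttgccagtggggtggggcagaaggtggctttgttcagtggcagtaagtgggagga

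More of these genes passed as lower than as higher in ATII cultures, with Nqo1, Gstm1 and Gclm among those lower and Gpx2 the furthest of those higher. In vehicle cultures 19 of 42 genes were lower in ATII cells and 6 were higher (limma with Benjamini-Hochberg adjustment over all features, adjusted p under 0.05), and 17 did not pass the test. Over all 32470 features tested (genes and unnamed probes), 18.0% were lower and 13.7% higher, 31.7% in all. Of the features brighter than the 75th percentile, 41.1% passed. The median log2 difference, ATII minus fibroblast, was -0.41 over the 42 genes, -0.16 over all features and -0.00015 over the features brighter than the 75th percentile. The groups did not overlap for 26 of the 42 genes, 19 of them lower and 7 higher in ATII cells, against 35.4% of all features.

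The vehicle count was 25 with slide as a block, with 6 higher and 19 lower. It was 21 on slide 1 alone and 18 on slide 2 alone, each of which holds 2 arrays of each vehicle group. Of the 25 genes, 16 passed the threshold under all 21 alternatives run, and 22 passed it under all of them other than the single slides. The exceptions were Gpx7, Cat and Pgd. Of the genes lost on single slides only, Txnrd1, Gpx3 and Sod1 passed on neither slide. Gss did not pass on slide 1 alone, and Gsr and Sod2 did not pass on slide 2 alone.

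**Figure D1:**
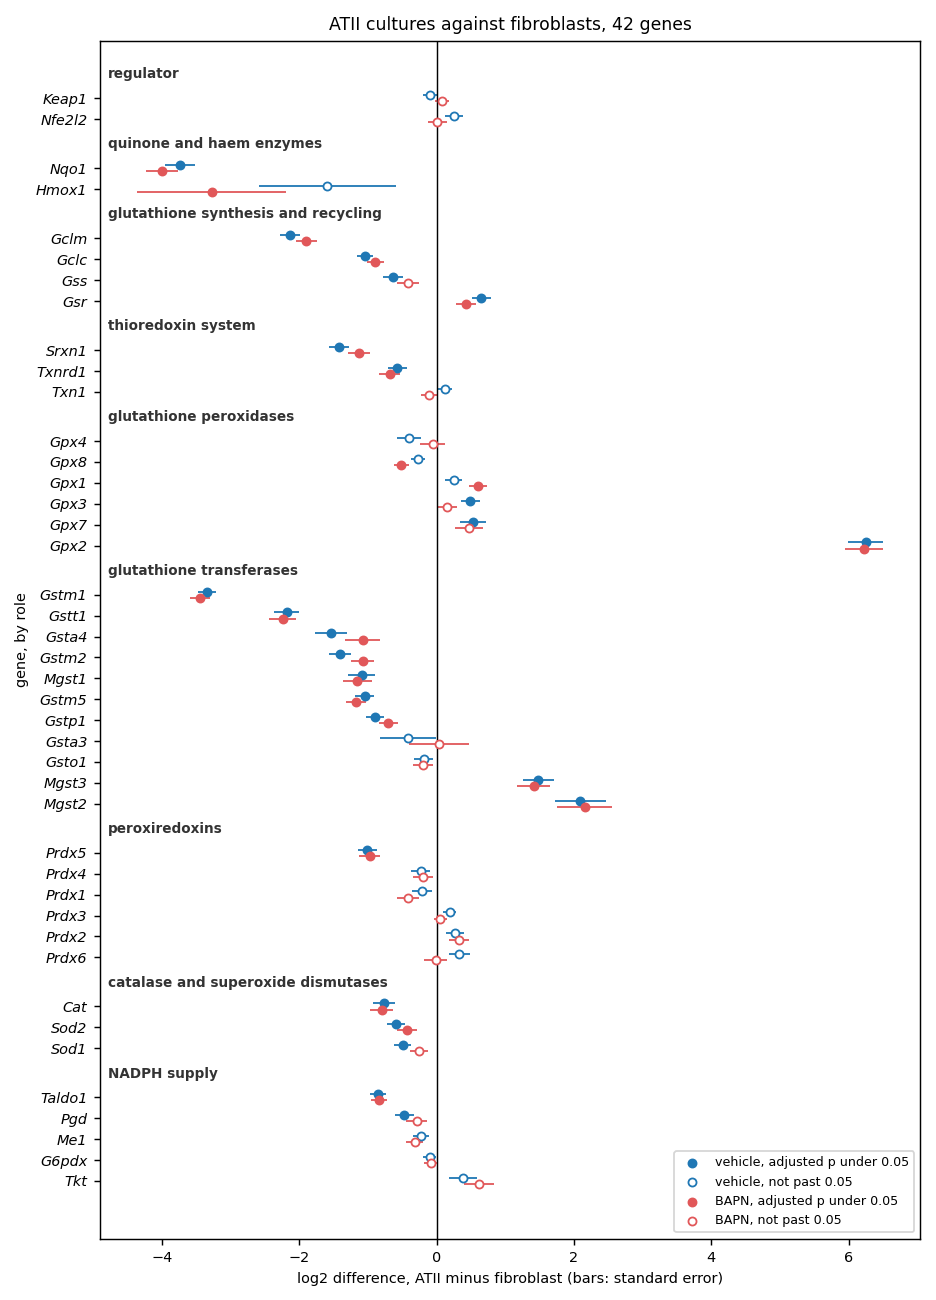
Each row is a gene, grouped by role, and the horizontal axis is the log2 difference ATII minus fibroblast, with bars of 1 standard error from limma; blue is vehicle, red is BAPN, and filled points passed an adjusted p of 0.05. Gpx2 stands far to the right at 6.25 and 6.22, and Nqo1 far to the left at -3.74 and -4.00, while Nfe2l2 and Keap1 lie near 0 in both.

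Neither of the 2 regulators passed the test. The Nfe2l2 level was 4.00, 3.89, 3.99 and 3.90 in the vehicle fibroblast arrays 1 to 4, and 4.09, 4.09, 4.20 and 4.41 in the vehicle ATII arrays. All 4 ATII arrays lay above the fibroblast arrays by a narrow margin. The log2 difference was 0.26 ± 0.13 (SE) with an adjusted p of 0.173, which does not pass the threshold; it did pass with normexp background correction, at 0.36 and an adjusted p of 0.0211.

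Keap1, whose protein is the NRF2 inhibitor, had levels of 2.94, 2.94, 3.02 and 2.68 in vehicle fibroblasts and 2.75, 2.84, 2.83 and 2.76 in vehicle ATII cells. Every ATII value lay inside the fibroblast range. Keap1 differed by -0.10 ± 0.10 on the log2 scale (adjusted p = 0.506), with a 95% interval of -0.32 to 0.12.

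Nqo1, a quinone reductase that is widely used as a readout of NRF2, was the member with the largest deficit in ATII cells. Its level was 2.28, 2.81, 3.37 and 2.63 in vehicle fibroblasts and -0.83, -1.24, -0.99 and -0.81 in vehicle ATII cells. The ATII arrays lay close together, and all were far below the lowest fibroblast array. Nqo1 had a log2 difference of -3.74 ± 0.22 (adjusted p = 2.98e-08), or 13.4-fold lower. The Nqo1 probe lies at chr8:109912440-109912499 in mm9.

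The 3 genes of glutathione synthesis were lower in ATII cells, while Gsr, the gene of glutathione recycling, was higher. Gclm, the modifier subunit of glutamate-cysteine ligase, which carries out the rate-limiting step, had levels of 1.70, 1.96, 2.17 and 1.82 in vehicle fibroblasts and -0.25, -0.22, -0.25 and -0.17 in vehicle ATII cells. The groups were far apart and the ATII arrays nearly equal. The log2 difference of Gclm was -2.14 ± 0.14 (adjusted p = 9.13e-08), or 4.39-fold lower.

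The catalytic subunit Gclc followed with a log2 difference of -1.04 ± 0.11 (adjusted p = 1.03e-05). Glutathione synthetase, Gss, was lower by less, with a log2 difference of -0.63 ± 0.15 (adjusted p = 0.00423). Gsr, the reductase that returns oxidised glutathione to its reduced form, had levels of 2.93, 2.81, 3.01 and 3.39 in vehicle fibroblasts and 3.86, 3.77, 3.56 and 3.56 in vehicle ATII cells. The groups did not overlap, although the highest fibroblast array came near the lowest ATII arrays. Gsr had a log2 difference of 0.65 ± 0.14 (adjusted p = 0.00263), or 1.57-fold higher, and its other probe gave 0.57. On slide 2 alone Gsr did not pass (0.56, adjusted p = 0.153). On slide 1 alone Gss did not pass (-0.45, adjusted p = 0.125).

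In the thioredoxin system, 2 of 3 genes were lower in ATII cells. Srxn1, sulfiredoxin, which repairs over-oxidised peroxiredoxins, had levels of 4.81, 4.90, 5.38 and 5.39 in vehicle fibroblasts and 3.50, 3.77, 3.65 and 3.84 in vehicle ATII cells. All ATII arrays were below all fibroblast arrays. The difference on the log2 scale was -1.43 ± 0.15 (adjusted p = 6.36e-06), or 2.69-fold lower. Txnrd1, the cytosolic thioredoxin reductase, differed by -0.57 ± 0.14 (adjusted p = 0.00609), and thioredoxin itself, Txn1, by 0.12 ± 0.11 (adjusted p = 0.461).

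**Figure D2:**
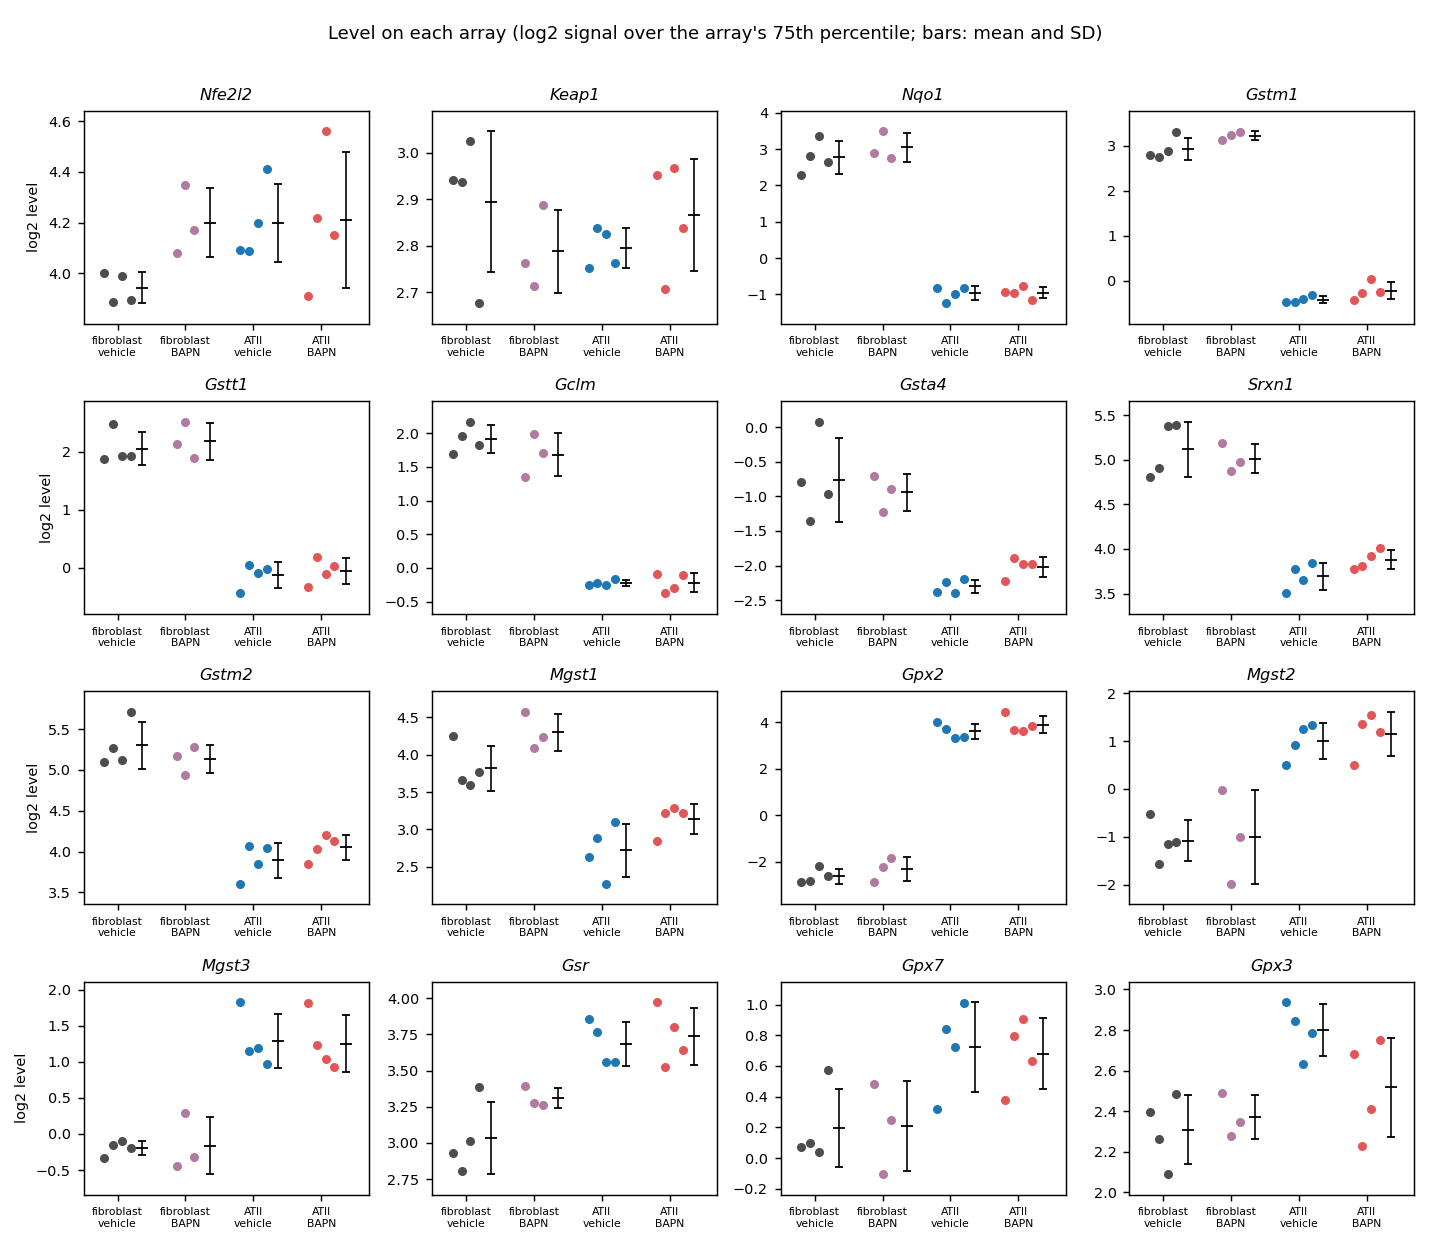
Each panel is a gene, each point an array, and the vertical axis the log2 level, which differs in range between panels; bars at the right of each group are the mean and SD. The 8 genes with the largest deficits among those that passed in vehicle (Nqo1 to Mgst1) show fibroblast groups above ATII groups with no overlap, Gpx2, Mgst2 and Mgst3 show the opposite, and in these 11 panels BAPN arrays overlap the vehicle arrays of their cell type.

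The glutathione peroxidases, a family that reduces peroxides, held 3 of the 6 members that were higher in ATII cells and 0 that were lower. Gpx2, an epithelial form best known from the gut lining, had levels of -2.87, -2.86, -2.20 and -2.62 in vehicle fibroblasts and 4.03, 3.72, 3.31 and 3.38 in vehicle ATII cells. No other member had such a gap between its groups. The log2 difference of Gpx2 was 6.25 ± 0.26 (adjusted p = 1.50e-09), or 75.9-fold higher in ATII cells. Its probe lies at chr12:77893402-77893461 in mm9.

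Gpx3, a secreted peroxidase, had levels of 2.40, 2.26, 2.09 and 2.48 in vehicle fibroblasts and 2.94, 2.84, 2.63 and 2.79 in vehicle ATII cells. The groups were separate but close. Gpx3 had a log2 difference of 0.49 ± 0.13 (adjusted p = 0.012).

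Gpx7, a peroxidase of the endoplasmic reticulum, had levels of 0.07, 0.10, 0.04 and 0.57 in vehicle fibroblasts and 0.32, 0.84, 0.72 and 1.01 in vehicle ATII cells. Fibroblast array 4 overlapped the ATII range. Its log2 difference was 0.53 ± 0.19 (adjusted p = 0.0451), and the adjusted p ranged from 0.0169 to 0.134 when single arrays were left out; the call was lost without vehicle fibroblast array 1, 2 or 3 or vehicle ATII array 2, 3 or 4. It was also lost with the replicate number as a block (adjusted p = 0.0544). The other 3 peroxidases did not pass the test, with log2 differences of 0.24 for the cytosolic Gpx1 (which did pass with quantile scaling, at 0.30 and an adjusted p of 0.0276), -0.27 for Gpx8 and -0.40 for Gpx4, which reduces lipid peroxides. Gpx8 did pass with normexp (-0.32, adjusted p = 0.0220), the position correction (-0.32, adjusted p = 0.0107) and the stricter background filter (adjusted p = 0.0449). Gpx4 passed without vehicle fibroblast array 1 (-0.52, adjusted p = 0.0358) and was -0.21 without array 4 (adjusted p = 0.249).

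The glutathione transferases, which attach glutathione to reactive compounds, held 7 members that were lower in ATII cells, 2 that were higher and 2 that did not pass the test. Gstm1, of the mu class, had levels of 2.81, 2.76, 2.88 and 3.30 in vehicle fibroblasts and -0.47, -0.46, -0.41 and -0.30 in vehicle ATII cells. The spread within each group was small beside the gap. Gstm1 differed by -3.35 ± 0.13 on the log2 scale (adjusted p = 1.09e-09), or 10.2-fold lower. The Gstm1 probe used is placed on chromosome 5 and its other probe on chromosome 3 in mm9; the other probe gave -3.54. Mu-class genes are near copies of each other, so how their signals divide is uncertain.

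Gstt1, of the theta class, had levels of 1.89, 2.48, 1.92 and 1.93 in vehicle fibroblasts and -0.44, 0.04, -0.09 and -0.02 in vehicle ATII cells. Fibroblast array 2 stood above the rest of its group, and the groups were far apart. This gave a log2 difference of -2.18 ± 0.18 (adjusted p = 8.63e-07), or 4.54-fold lower. Gsta4, an alpha-class enzyme that clears the lipid peroxidation product 4-hydroxynonenal, had levels of -0.80, -1.35, 0.08 and -0.97 in vehicle fibroblasts and -2.38, -2.23, -2.40 and -2.20 in vehicle ATII cells. Fibroblasts varied more than ATII cells, without overlap. Gsta4 differed by -1.54 ± 0.24 on the log2 scale (adjusted p = 0.000206).

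Gstm2 had levels of 5.10, 5.27, 5.12 and 5.71 in vehicle fibroblasts and 3.61, 4.07, 3.85 and 4.04 in vehicle ATII cells. The groups were more than a log2 unit apart at their nearest arrays. Its log2 difference was -1.41 ± 0.16 (adjusted p = 1.20e-05), and its 3 probes gave between -1.65 and -1.41. The microsomal transferase Mgst1 had levels of 4.25, 3.66, 3.60 and 3.76 in vehicle fibroblasts and 2.63, 2.89, 2.28 and 3.10 in vehicle ATII cells. Fibroblast array 1 was the highest, and no arrays overlapped. Its log2 difference was -1.09 ± 0.20 (adjusted p = 0.000723).

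The other microsomal members went the other way. Mgst2, which can also make leukotriene C4, had levels of -0.52, -1.56, -1.14 and -1.12 in vehicle fibroblasts and 0.50, 0.92, 1.26 and 1.34 in vehicle ATII cells. Its log2 difference was 2.09 ± 0.37 (adjusted p = 0.000697), or 4.26-fold higher in ATII cells. Mgst3 had levels of -0.34, -0.15, -0.10 and -0.19 in vehicle fibroblasts and 1.83, 1.15, 1.19 and 0.97 in vehicle ATII cells. ATII array 1 was the highest, and the groups did not overlap for either gene. The log2 difference of Mgst3 was 1.48 ± 0.23 (adjusted p = 0.000214), or 2.79-fold higher.

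The remaining transferases that were lower in ATII cells were Gstm5 at -1.05 and Gstp1, the pi-class enzyme, at -0.90. Gsto1 (-0.19) and Gsta3 (-0.42) did not pass the test, and Gsta3 varied widely between arrays of every group, with an SD of 0.56 to 0.73.

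Of the peroxiredoxins, which reduce peroxides, most of them with electrons from thioredoxin, 1 of 6 was lower in ATII cells. This was Prdx5, with a log2 difference of -1.01 ± 0.14 (adjusted p = 7.56e-05) and the same value to within 0.0032 on its other probe. The other peroxiredoxins differed by between -0.23 (Prdx4) and 0.33 (Prdx6), with adjusted p-values of 0.122 to 0.303. Of the 4 probes of Prdx6, the dimmest (mean level -3.07) gave -0.0069, and the others gave 0.16, 0.33 and 0.35. Prdx1 did pass with the mean of its probes (-0.39, adjusted p = 0.0148) and without vehicle fibroblast array 4 (-0.36, adjusted p = 0.0332). Prdx2 passed with quantile scaling (0.32, adjusted p = 0.0373), in the authors' deposited table (0.32, adjusted p = 0.0376), on slide 1 alone (0.43, adjusted p = 0.0320) and without vehicle fibroblast array 4 (0.41, adjusted p = 0.00661).

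Catalase and both superoxide dismutases, the enzymes that act on peroxide and superoxide directly, were lower in ATII cells by less than 1 log2 unit. The log2 difference in catalase, Cat, was -0.77 ± 0.16 (adjusted p = 0.00216), -0.59 ± 0.13 for the mitochondrial Sod2 (adjusted p = 0.00372) and -0.50 ± 0.12 for the cytosolic Sod1 (adjusted p = 0.00714). The other Cat probe gave 0.09, and with the mean of its probes Cat no longer passed (-0.34, adjusted p = 0.0936).

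Of the genes that supply NADPH, 2 of 5 were lower in ATII cells. Taldo1, the transaldolase of the pentose phosphate pathway, differed by -0.85 ± 0.11 (adjusted p = 6.97e-05). Pgd, which makes NADPH in the same pathway, differed by -0.47 ± 0.14 (adjusted p = 0.0228), a call lost without vehicle fibroblast array 3 (adjusted p = 0.0507) or 4 (0.0550) or vehicle ATII array 4 (0.0658), and with the replicate number as a block (0.0628). G6pdx, which opens the pathway, differed by -0.10, the malic enzyme Me1 by -0.23 and the transketolase Tkt by 0.38, and none of these passed. Tkt did pass with normexp (0.47, adjusted p = 0.0396), on slide 1 alone (0.69, adjusted p = 0.0386, against 0.06 on slide 2 alone) and without vehicle fibroblast array 4 (0.58, adjusted p = 0.0167), and it was 0.23 without array 1.

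The cell types were compared again under BAPN, with group means from arrays that did not enter the vehicle means. Both comparisons came from the same limma fit over all arrays and shared its estimate of the spread. Their p-values are therefore not independent of each other. Under BAPN 18 of 42 genes were lower and 5 higher in ATII cells, against 16.2% and 13.2% of 32268 features (29.4% in all). Of the features brighter than the 75th percentile, 35.9% passed. The median difference was -0.31 over the 42 genes and 0.0044 over all features, and 30 of the 42 genes had groups that did not overlap, against 34.1% of features. The count was 22 with slide as a block. Slide 1 holds 1 fibroblast BAPN array and slide 2 holds 1 ATII BAPN array. On a single slide that array had to be assumed to vary like the other groups, so no count is given there.

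The sign was the same in vehicle and in BAPN for 38 of the 42 genes, and 20 genes passed the threshold in both with the same sign. Across the 42 genes the differences had r = 0.976, and 0.956 without Gpx2, as a description over genes that share each probe and its brightness. Gss, Sod1, Pgd, Gpx3 and Gpx7 passed in vehicle alone and Hmox1, Gpx8 and Gpx1 under BAPN alone, but the test of the difference itself passed for 0 of the 42 genes. Nqo1 (-4.00 ± 0.23), Gstm1 (-3.45 ± 0.14) and Gpx2 (6.22 ± 0.28) were again the extremes, while Nfe2l2 differed by 0.01 ± 0.14 and Keap1 by 0.08 ± 0.11.

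Hmox1, haem oxygenase, which degrades haem and answers to NRF2 as well as to haem itself, was the most variable member. Its level was 1.91, 5.92, 3.27 and 1.65 in vehicle fibroblasts and 2.94, 5.93 and 3.71 in fibroblast BAPN arrays 1, 2 and 4. In ATII cells it was -0.04, 0.17, 2.95 and 3.29 in vehicle arrays 1 to 4 and 0.65, 0.61, 1.48 and 0.92 in BAPN arrays 1, 3, 4 and 5. Both fibroblast arrays numbered 2 were far above the rest, and the vehicle ATII arrays fell into a low and a high pair.

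The other Hmox1 probe showed the same high arrays, at 2.93 and 2.63 on the fibroblast arrays numbered 2 and at -1.47, -1.52, -0.07 and 0.15 on the vehicle ATII arrays 1 to 4. The summed macrophage markers were 36.3 and 34.8 on the fibroblast arrays numbered 2 and 18.6 to 24.0 on the other fibroblast arrays; their part in the Hmox1 level was not tested. On the vehicle ATII arrays they were 8.15, 8.0, 8.89 and 8.19, so the high pair for Hmox1 did not stand apart there.

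The vehicle difference of Hmox1 did not pass the test (-1.59 ± 1.00, adjusted p = 0.267). Under BAPN it did (-3.28 ± 1.08, adjusted p = 0.0355, 9.70-fold lower), but not without fibroblast BAPN array 2 (-2.41, adjusted p = 0.164), without fibroblast BAPN array 4 (adjusted p = 0.0626), without ATII BAPN array 1, 3 or 5 (0.0734, 0.0731 and 0.0663) or with slide as a block (-2.88, adjusted p = 0.0721). Among the other members that passed under BAPN, Gsr and Sod2 also lost the threshold in several of these settings. Their adjusted p-values reached 0.128 for Gsr and 0.109 for Sod2 when single arrays were left out.

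**Figure D3:**
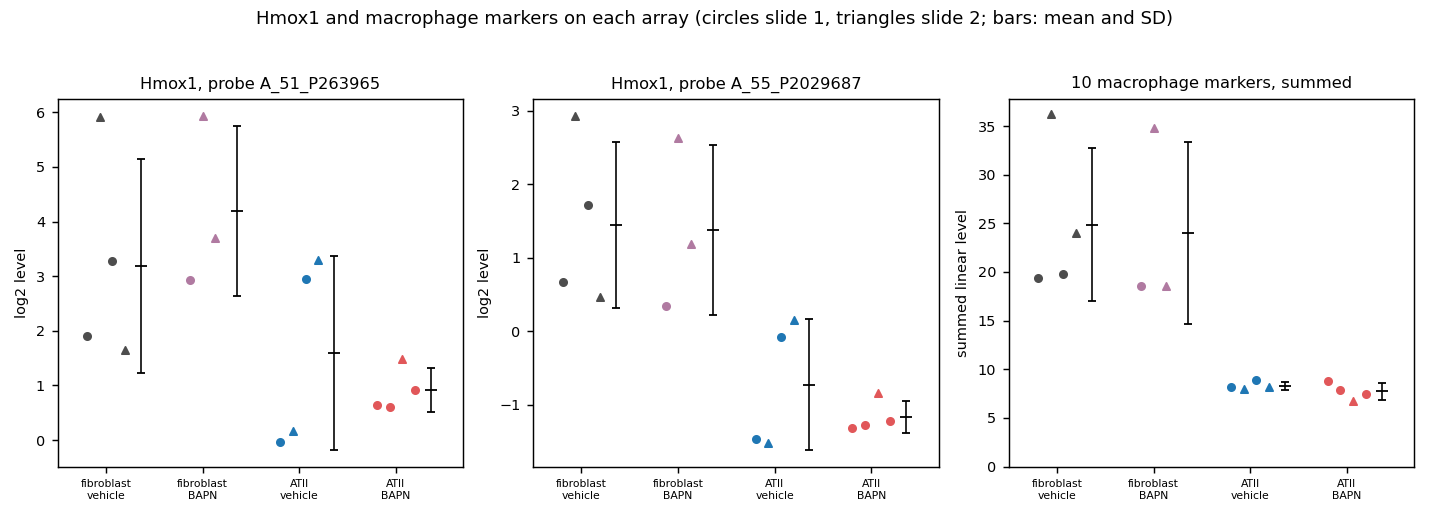
The left and middle panels show the log2 level of Hmox1 on its 2 probes and the right panel the summed linear level of 10 macrophage markers, for each array (circles on slide 1, triangles on slide 2), with the mean and SD of each group. The fibroblast arrays numbered 2 are highest in all 3 panels, while the vehicle ATII arrays split into pairs for Hmox1 and not for the markers, which lie between 8.0 and 8.89.

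In fibroblasts, BAPN changed 0 of the 42 genes past the threshold of limma's adjusted p. Over all features, 4455 of 32255 (13.8%) passed, 641 higher (1.99%) and 3814 lower (11.8%), and of the 11028 features brighter than the 75th percentile 6.73% passed. At an unadjusted p under 0.05 there were 4 of the 42 genes (Gpx1, Txn1, Gss and Mgst1), against 26.9% of features. The median log2 difference, BAPN minus vehicle, was 0.07 over the 42 genes and 0.06 over the bright features. The groups did not overlap for 4 genes, higher under BAPN for Nfe2l2, Txn1 and Gsto1 and lower for Gpx1, against 24.0% of features.

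The 95% interval of the BAPN effect in fibroblasts lay within a 2-fold change either way for 40 of the 42 genes, all but Hmox1 and Gsta3, and for 60.7% of all features. The largest fold change inside the interval, in either direction, had a median of 1.46 over the 42 genes and was lowest for G6pdx, at 1.18. Nqo1, for example, differed by 0.27 ± 0.23, with an interval of -0.24 to 0.78, and Nfe2l2 by 0.26 ± 0.14 (adjusted p = 0.277). With a correction for array position Nfe2l2 differed by 0.15 (adjusted p = 0.458).

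Gpx1 had the smallest p. Its level was 5.52, 5.57, 5.42 and 5.99 in vehicle fibroblasts and 5.36, 5.16 and 5.15 under BAPN. All BAPN arrays were below all vehicle arrays, the nearest by a small step. Gpx1 had a log2 difference of -0.40 ± 0.13 (adjusted p = 0.0574). Gpx1 did pass with quantile scaling (-0.46, adjusted p = 0.0229), in the authors' deposited table (-0.46, adjusted p = 0.0223), with slide as a block (-0.42, adjusted p = 0.0486), and without vehicle array 3 or BAPN array 1 (adjusted p of 0.0424 and 0.0498). On slide 1 alone, which holds 1 fibroblast BAPN array, Gpx1 differed by -0.11, and on slide 2 alone by -0.63. It was smaller with the position correction (-0.27, adjusted p = 0.147), with normexp (-0.23, adjusted p = 0.221) and without vehicle array 4 (-0.28, adjusted p = 0.102).

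Txn1 had levels of 5.94, 5.86, 6.06 and 6.16 in vehicle fibroblasts and 6.50, 6.30 and 6.19 under BAPN. The groups were separated by the narrow gap between vehicle array 4 and BAPN array 4. Txn1 differed by 0.33 ± 0.12 on the log2 scale (adjusted p = 0.081), and by 0.16 with normexp (adjusted p = 0.428). With the position correction Txn1 differed by 0.25 (adjusted p = 0.169).

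Gss had levels of 2.00, 2.49, 2.40 and 2.71 in vehicle fibroblasts and 1.81, 2.22 and 1.97 under BAPN. BAPN array 2 lay above vehicle array 1, so the groups overlapped. Gss had a log2 difference of -0.40 ± 0.16 (adjusted p = 0.117), and it passed the threshold without vehicle array 1 (-0.53, adjusted p = 0.0295). It was smaller with the position correction (-0.23, adjusted p = 0.347), with normexp (-0.23, adjusted p = 0.362) and without vehicle array 4 (-0.29, adjusted p = 0.259).

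Of the 4455 features called in fibroblasts, 4204 lay in array columns above 82 of 164 and 251 in the other columns. The 16 members in the columns above 82 had a median log2 difference of 0.25 and the 26 other members one of 0.0029, against 0.15 and -0.03 for bright features in those columns. The probes of Nfe2l2, Txn1 and Gsto1 lie in columns 150, 129 and 148, and that of Gpx1 in column 35. The part of array position in single members was not tested. With a correction for position within brightness strata, 0 members passed.

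**Figure D4:**
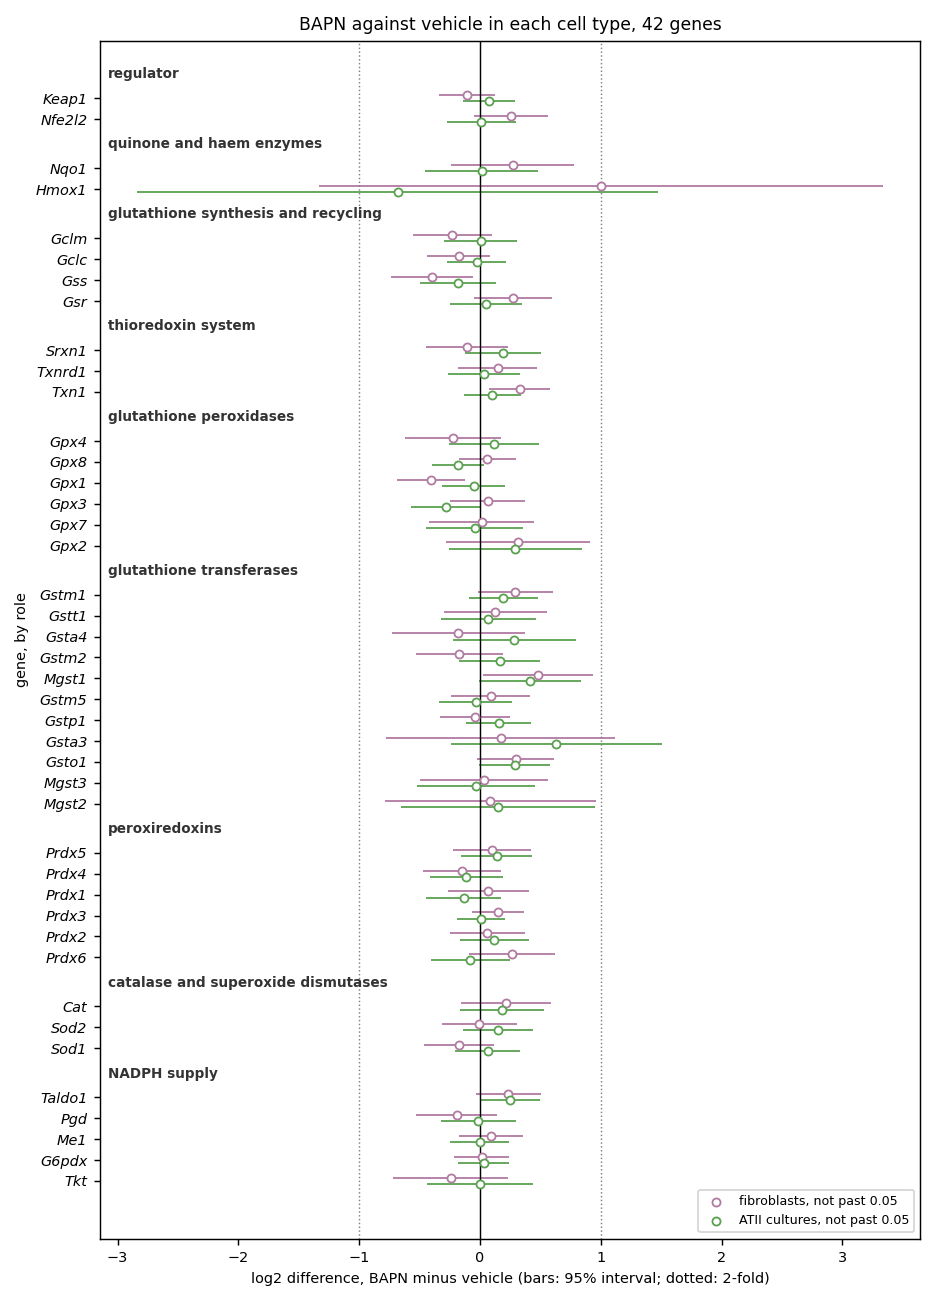
Each row is a gene, grouped by role, and the horizontal axis is the log2 difference BAPN minus vehicle, with the 95% interval from limma as bars; purple is fibroblasts, green is ATII cultures, and dotted lines mark a 2-fold change. All points are open since 0 of the 42 genes passed in either cell type, and only the intervals of Hmox1 and Gsta3 cross the dotted lines.

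In ATII cells, BAPN also changed 0 of the 42 genes past the threshold, and here 0 of 32045 features (0.0%) passed. At an unadjusted p under 0.05 there were 0 of the 42 genes in limma, against 10.4% of features. The groups did not overlap for 2 genes, Gpx8 and Taldo1, against 9.31% of features. The median log2 difference was 0.04 over the 42 genes and -0.0033 over all features, and the 95% interval lay within a 2-fold change for 40 of the 42 genes, again all but Hmox1 and Gsta3, and for 69.8% of features.

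The smallest p in ATII cells belonged to Taldo1, with levels of 6.06, 6.13, 6.16 and 6.05 in vehicle and 6.20, 6.17, 6.57 and 6.44 under BAPN. The groups touched, with the highest vehicle array just under the lowest BAPN array. The log2 difference was 0.25 ± 0.11 (adjusted p = 0.461).

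Mgst1 came next, with 2.63, 2.89, 2.28 and 3.10 in vehicle and 2.84, 3.22, 3.29 and 3.22 under BAPN. BAPN array 1 overlapped the vehicle range. The log2 difference was 0.42 ± 0.20 (adjusted p = 0.461); in fibroblasts it was 0.48 ± 0.21 (adjusted p = 0.163).

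Gpx3 had 2.94, 2.84, 2.63 and 2.79 in vehicle and 2.68, 2.23, 2.41 and 2.75 under BAPN. The groups overlapped at their edges. Gpx3 differed by -0.28 ± 0.13 on the log2 scale (adjusted p = 0.461). Nfe2l2 differed by 0.01 ± 0.13 and Nqo1 by 0.01 ± 0.22 in ATII cells.

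Whether BAPN acted differently in the cell types was tested as an interaction (effect in ATII cells minus effect in fibroblasts), and 0 of the 42 genes and 0 of 34287 features (0.0%) passed, with 0 genes and 14.1% of features at an unadjusted p under 0.05. The 3 members of smallest p were Gpx1 (0.35 ± 0.18, adjusted p = 0.397), Gpx3 (-0.35 ± 0.20, adjusted p = 0.447) and Gpx8 (-0.24 ± 0.15, adjusted p = 0.489). Gpx8 had levels of 5.32, 5.55, 5.33 and 5.37 in vehicle fibroblasts, 5.65, 5.46 and 5.24 in BAPN fibroblasts, 5.07, 5.13, 5.07 and 5.19 in vehicle ATII cells and 4.85, 5.0, 4.91 and 4.98 in BAPN ATII cells. The fibroblast groups overlapped and the ATII groups did not. The interval of the difference lay within 2-fold for 38 of the 42 genes, all but Hmox1, Gsta3, Gsta4 and Mgst2.

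A further list of 77 genes of NRF2 signalling, glutathione use, thioredoxin, NADPH, quinone, haem and iron handling was read beside the 42. Of the 72 that had a probe and were tested in the vehicle comparison, 29 were lower and 9 higher in ATII cells (52.8%, against 31.7% of features), with a median of -0.28. The largest deficits were those of the mu-class transferase Gstm6 (-3.01 ± 0.19, adjusted p = 6.11e-08), the microsomal epoxide hydrolase Ephx1 (-2.81 ± 0.16, adjusted p = 2.06e-08) and Txnip, which binds and inhibits thioredoxin (-2.54 ± 0.54, adjusted p = 0.00249).

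The largest rises in that list were those of the sestrin Sesn3 (1.71 ± 0.15, adjusted p = 1.57e-06), of Chac1, which breaks down glutathione (1.62 ± 0.24, adjusted p = 0.000149), and of Idh1, a cytosolic source of NADPH (0.76 ± 0.10, adjusted p = 5.18e-05). Under BAPN, 30 were lower and 11 higher in ATII cells (56.9%, against 29.4% of features). In fibroblasts the BAPN effect passed for 1 of the 72 genes (1.39%, against 13.8% of features), the thioredoxin reductase Txnrd3. Its mean level was 0.37 ± 0.15 (SD, n = 4) in vehicle and 0.82 ± 0.12 (SD, n = 3) under BAPN (log2 difference 0.45 ± 0.11, adjusted p = 0.0205). Neither Txnrd3 nor any other gene of this further list was followed through the alternatives, the position correction among them. In ATII cells the BAPN effect passed for 0 of the listed genes, against 0.0% of features.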

How the data were processed

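The deposited scanner files hold, per the file headers, processed spot intensity made with Agilent Feature Extraction 10.7.3.1 on an array designed on mm9, background-subtracted and detrended within each array. The deposited series table holds log2 values whose columns share the same sorted values, and it was used as an alternative. Outlier-marked spots were left out, spots of a probe averaged, and the probe with the highest mean over 15 arrays stood for a gene. Levels were log2 intensity minus the array's 75th percentile. Of the arrays in a comparison, at least 3 had to hold a feature well above background for it to be tested with limma 3.58.1 in R 4.3.3, tested on simulated data first, over all 15 arrays with a mean per group, two-sided, with Benjamini-Hochberg adjustment and a threshold of 0.05. Arrays of each group lay on both of 2 slides. Same-numbered vehicle arrays of the 2 cell types deviated together (r of 0.22, 0.25, 0.39 and 0.32), so by the rule used here, every pair above 0.1, numbers pair that comparison; the labels give no reason, and equal numbers also shared a slide. They did not pair the other comparisons.

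Per-array values are given for Nfe2l2, Keap1, the 8 largest falls and up to 8 largest rises that passed in vehicle, and the 3 members of smallest p in each BAPN test; Hmox1 was added after its values were seen. The members and lists were chosen with earlier results of these data known. Tables and plots came from Python 3.11.15, with numpy 2.4.6, pandas 2.3.3 and matplotlib 3.10.9. Of the 77 listed pathway genes, Sod3 and Gsta1 had no probe under their name.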

Additional observations from a re-analysis of the deposited data

Results flagged for a closer look

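Of 126 combinations of a member and a group of 4 arrays, 6 held an array whose gap to its nearest neighbour took up most of the range of its group; chance flags about 1 in 20. In vehicle fibroblasts, Gpx7 on array 4 (0.57) lay above the others (0.04 to 0.10), and Gstt1 on array 2 (2.48) lay above 1.89 to 1.93. On ATII BAPN array 1, Gstm5 (1.67) lay below 2.09 to 2.13 and Mgst1 (2.84) below 3.22 to 3.29. Prdx3 on ATII BAPN array 4 (2.97) lay above 2.74 to 2.76, and Prdx6 on ATII BAPN array 5, the replacement array (6.85), above 6.54 to 6.58.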

How the results depend on the processing

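With single arrays left out, the count of members that passed ranged from 23 to 28 between the cell types in vehicle, 20 to 22 under BAPN, 0 to 1 for BAPN in fibroblasts, and was 0 for BAPN in ATII cells and for the difference. Under BAPN the count between cell types was 7 on slide 2 alone. For BAPN in fibroblasts it was 1 with quantile scaling, the authors' deposited table and slide as a block. Under the other alternatives run, each count stayed within 1.5 times its value, and no gene that passed between the cell types changed direction. Quantile scaling moved the median of all features between cell types in vehicle from -0.16 to -0.02.

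Among the values followed through every alternative, directions turned for G6pdx between cell types in vehicle on slide 1 alone (0.032), Nfe2l2 between cell types under BAPN without single arrays (-0.11 to 0.11 over them), and Nfe2l2 for BAPN in ATII cells with normexp (-0.16), the position correction (-0.050), slide 1 alone (-0.053), the replicate block (-0.0054) and without single arrays (-0.11 to 0.11). Over all 42 members, slide 1 alone turned the sign of 9 BAPN effects in fibroblasts (Gpx2 from 0.32 to -0.34) and 10 in ATII cells, slide 2 alone 13 and 3, and the position correction 6 and 9; 0 of these had passed. Between the cell types at most 4 signs turned per setting among the slides, the slide block and the position correction, again 0 that had passed. On slide 1 the fibroblast BAPN group has 1 array, and on slide 2 the ATII BAPN group has 1 array. The cause of the turns was not tested.

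Under BAPN and for the BAPN effects, same-numbered arrays correlated from -0.05 to 0.41, without pairing. With the replicate block, 23 members passed between cell types in vehicle, 21 under BAPN, and 0 in each BAPN effect; in vehicle it changed no call other than those of Gpx7 and Pgd. After seeing the data, both fibroblast arrays numbered 2 were left out: 24 members passed in vehicle, 21 under BAPN, and 0 for BAPN in fibroblasts and for the difference. The largest fold inside the 95% interval of a BAPN effect had a median over members of 1.46 in fibroblasts and 1.36 in ATII cells, and reached 10.1 and 7.14 for Hmox1.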
